A study of Caenorhabditis elegans with 4 samples.

Results

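miR-57-5p, miR-60-3p, miR-63-3p and miR-248 are 4 of the 66 mature microRNAs (miRNAs) listed for co-immunoprecipitations (co-IPs) of the *C. elegans* Argonautes ALG-1 and ALG-2. They were chosen by their measured values: they were picked as miRNAs outside the larger families, although miR-63-3p has 4 relatives in the table, and the normalized reads of each ALG-1 library were more than 1.5 times those of each ALG-2 library (4 ratios). Their excess with ALG-1 is therefore given as a description and is not tested. All 4 were listed in every library.

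The ALG-1 libraries came from whole FLAG::GFP::ALG-1 (PQ530) animals and the ALG-2 libraries from whole FLAG::RFP::ALG-2 (PQ582) animals, with 2 independent RNA samples per strain. Both groups were at day 5 of adulthood, grown at 20°C on OP50 bacteria without further treatment, and separated from eggs and larvae before the anti-FLAG pulldown. Each protein was tagged at its endogenous gene, in 1 edited strain per Argonaute, so the fluorescent tag, the strain and the Argonaute cannot be told apart. Input RNA and a mock co-IP were not analysed here. Preferential binding therefore cannot be told apart from where each protein and each miRNA is made.

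An Argonaute holds a mature miRNA and uses it as a guide to pair with target messenger RNAs, which are then repressed. A miRNA is loaded in the cells that transcribe it. For this set the known sites differ. miR-57 is expressed in posterior cells and takes part in a regulatory loop with the Hox gene *nob-1*. miR-60 is expressed mainly in the intestine, and its loss protects animals during prolonged mild oxidative stress. miR-63 is grouped with miR-64, miR-65, miR-66 and miR-229 because their mature sequences start alike, although it is encoded elsewhere in the genome, so it does have listed relatives. No site of expression or role is given here for miR-248.

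miR-57-5p stood apart by abundance. It had 65097 and 70936 RPM (reads per 1000000 reads of the library) in ALG-1 libraries A and B, against 23670 and 24650 RPM in ALG-2 libraries A and B. Both ALG-1 libraries were thus far above both ALG-2 libraries, and the libraries of each Argonaute were close to each other. It averaged 68017 ± 4128 RPM in the ALG-1 co-IPs, against 24160 ± 693 RPM in the ALG-2 co-IPs (SD, n = 2 per co-IP). By the mean over the libraries it was the 4th most abundant of all listed miRNAs, but its position depended on the Argonaute. It ranked 3 and 2 in the ALG-1 libraries, and 13 and 12 in the ALG-2 libraries. The 4 ratios spanned only 2.64 to 2.997, and the log2 ratio (ALG-1 over ALG-2, on the log2(RPM + 1) scale) was 1.49.

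miR-60-3p, the intestinal miRNA, had 3125 and 2362 RPM in the ALG-1 libraries, against 495 and 799 RPM in the ALG-2 libraries. The groups did not overlap, but in neither group were the libraries as close as for miR-57-5p. It averaged 2744 ± 540 RPM in the ALG-1 co-IPs, against 647 ± 214 RPM in the ALG-2 co-IPs (SD, n = 2 per co-IP). ALG-1 library A was 1.32 times library B, whereas ALG-2 library B was 1.61 times library A. Its ratios accordingly lay between 2.96 and 6.31. The log2 ratio was 2.11.

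miR-248 had 1437 and 1447 RPM in the ALG-1 libraries, against 293 and 388 RPM in the ALG-2 libraries. The ALG-1 libraries were nearly equal, and the groups were well separated. It averaged 1442 ± 7.13 RPM in the ALG-1 co-IPs, against 340 ± 66.9 RPM in the ALG-2 co-IPs (SD, n = 2 per co-IP). The lowest of its 4 ratios, 3.71, was the highest such value in the table, and the highest was 4.94. The log2 ratio was 2.09. miR-60-3p and miR-248 thus had the highest log2 ratios of the listed miRNAs, but their order turned without ALG-1 library A (1.91 for miR-60-3p and 2.10 for miR-248) and without ALG-2 library A (1.77 and 1.89).

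miR-63-3p had 1221 and 1524 RPM in the ALG-1 libraries, against 305 and 590 RPM in the ALG-2 libraries. Again the groups did not overlap, although ALG-2 library B was 1.93 times library A. It averaged 1373 ± 215 RPM in the ALG-1 co-IPs, against 448 ± 201 RPM in the ALG-2 co-IPs (SD, n = 2 per co-IP). The 4 ratios ranged from 2.07 to 4.99 and depended mainly on which ALG-2 library was used. The log2 ratio of 1.68 ranked 4.

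**Figure D1:**
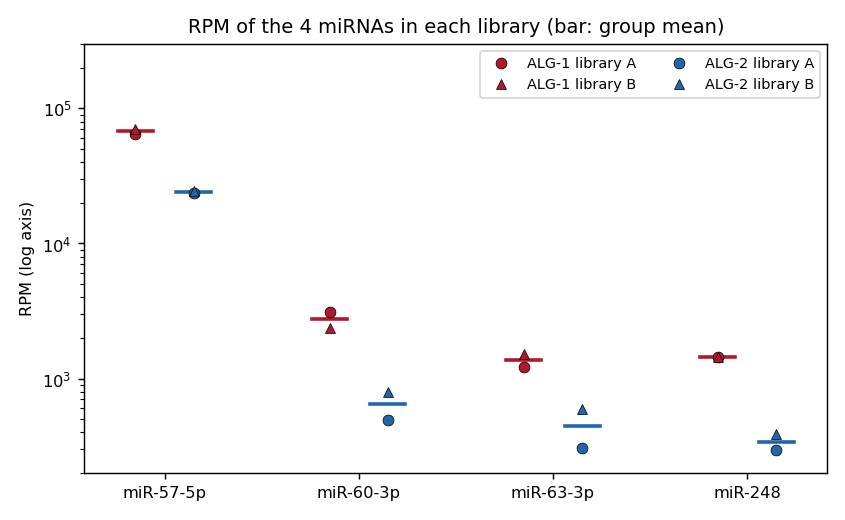
RPM (log axis) of the 4 miRNAs in ALG-1 libraries A and B (red) and ALG-2 libraries A and B (blue), with a bar at each group mean (n = 2 libraries). Both red points lie above both blue points for each miRNA, and miR-57-5p lies at 23670 to 70936 RPM, far above the other miRNAs.

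Depth was estimated from the RPM values, with the smallest step of each library taken as 1 read. On this reading the libraries rested on 6428905 to 25703472 reads, and the fewest reads behind any of these values were 3635 (miR-248 in ALG-2 library A), for which the relative counting error would be 1.66%. This error covers the sampling of reads only, since PCR copies were not marked. The spread between libraries is the larger limit. Across all 66 miRNAs the median absolute log2 difference between libraries A and B was 0.34 for ALG-1 and 0.90 for ALG-2. For miR-57-5p it was 0.12 and 0.059, for miR-248 0.010 and 0.40, for miR-60-3p 0.40 and 0.69, and for miR-63-3p 0.32 and 0.95, ALG-1 before ALG-2 in each case. The selection on all 4 ratios favours miRNAs with close libraries, so close agreement between libraries, as for miR-57-5p and miR-248 with ALG-1, is partly set by the choice. All 4 miRNAs were higher in ALG-2 library B than in ALG-2 library A.

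All 4 miRNAs meet the 1.5-fold criterion by their choice, and 9 of all 66 miRNAs (13.6%) did so toward ALG-1. Both ALG-1 libraries exceeded both ALG-2 libraries for 18 of 66 miRNAs (27.3%). The choice of the 4 miRNAs fixed their own count, so nothing is read from it. The median log2 ratio was 1.89 over the 4 miRNAs and 0.13 over all 66. The choice also put the 4 on the high side, so nothing is read from this difference. The threshold cut closely for other miRNAs but not for these. Just inside it was let-7-5p, with ratios from 1.57 to 2.96, and just outside it was miR-54-3p, with ratios from 1.32 to 4.34. The smallest ratio of the 4 miRNAs described here was 2.07, for miR-63-3p.

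**Figure D2:**
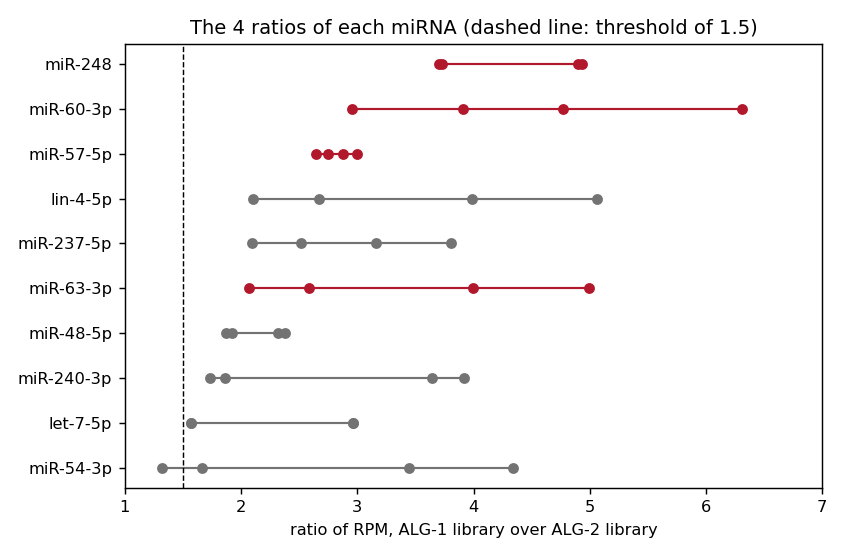
The 4 ratios of RPM, each ALG-1 library over each ALG-2 library (points, joined by a line), for the 9 miRNAs that passed toward ALG-1 and for miR-54-3p, just outside; the dashed line marks 1.5. The ratios of miR-57-5p are tightly grouped from 2.64 to 2.997, whereas those of miR-60-3p range from 2.96 to 6.31.

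The ratios did not follow abundance within the set. miR-57-5p had the smallest log2 ratio of the 4 and the highest level, at a mean of 46088 RPM over the libraries. The other miRNAs averaged 1695 RPM (miR-60-3p), 910 RPM (miR-63-3p) and 891 RPM (miR-248), and ranked 39, 48 and 49 of 66. All of these fall below the median of 3129 RPM over the listed miRNAs. Among the rarer miRNAs, miR-60-3p was the highest in every library. miR-63-3p and miR-248 did not hold a fixed order: miR-248 was higher in ALG-1 library A and miR-63-3p in the other libraries.

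**Figure D3:**
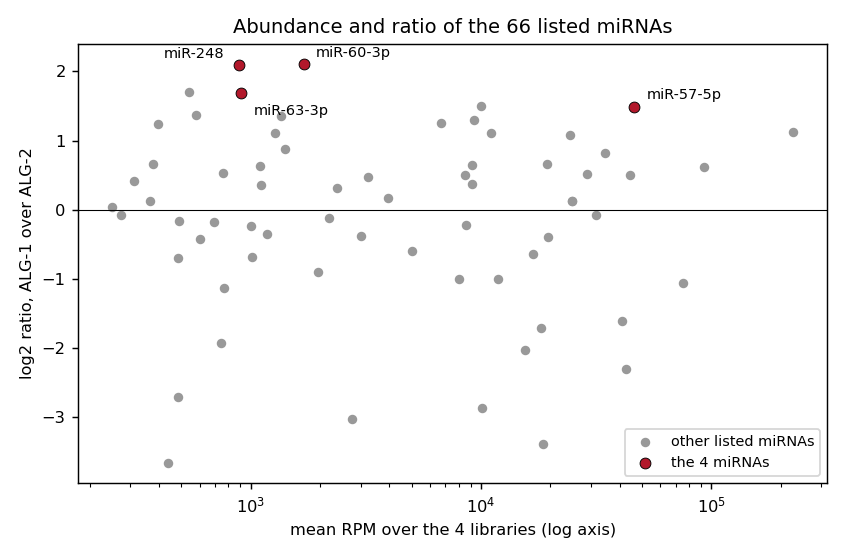
Mean RPM over the 4 libraries (log axis) and log2 ratio of ALG-1 over ALG-2 for the 66 listed miRNAs. The 4 miRNAs (red) lie at log2 ratios of 1.49 to 2.11, with miR-57-5p at 46088 RPM and the others between 891 and 1695 RPM.

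Together the 4 miRNAs accounted for 7.09% and 7.63% of the read total behind the RPM values in the ALG-1 co-IPs, against 2.48% and 2.64% in the ALG-2 co-IPs. Most of this was miR-57-5p, which contributed between 91.8% and 95.6% of the sum in each library. Without it, the remaining miRNAs accounted for 0.556% ± 0.0318 in the ALG-1 co-IPs, against 0.143% ± 0.0482 in the ALG-2 co-IPs (SD, n = 2 per co-IP).

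Ratios between miRNAs of the same library do not depend on how the library was scaled. The choice made every member higher with ALG-1, so a shared direction was built in. The ratios describe only how the members differed in size of change. miR-60-3p exceeded miR-248 by 2.18 and 1.63-fold in the ALG-1 libraries, against 1.69 and 2.06-fold in the ALG-2 libraries. This was the steadiest of the 6 pairs, with a highest value 1.33 times the lowest and overlapping groups. miR-57-5p exceeded miR-60-3p by 20.8 and 30.03-fold in the ALG-1 libraries, against 47.8 and 30.9-fold in the ALG-2 libraries, which was the most variable pair (2.29 times). For miR-57-5p over miR-248, the values were 45.3 and 49.0 with ALG-1, and 80.8 and 63.6 with ALG-2. The excess with ALG-1 was thus larger for miR-248 than for miR-57-5p in each pair of libraries.

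The pattern over the 4 libraries was also compared with that of every other miRNA, by the root mean square difference of log2 values after each miRNA was centred on its own mean. miR-60-3p and miR-248 were the closest pair within the set, at 0.18. Outside it, miR-237-5p, a relative of the developmental timing miRNA lin-4, was the closest to each of the 4 miRNAs, at 0.20 (miR-57-5p), 0.39 (miR-60-3p), 0.16 (miR-63-3p) and 0.32 (miR-248). The median difference to the miRNAs outside the set was between 0.94 and 1.202. The next closest was miR-48-5p, of the let-7 family, for miR-57-5p (0.25), and miR-240-3p for miR-60-3p (0.40), miR-63-3p (0.22) and miR-248 (0.43). The centring removes the level, so this describes likeness in pattern over only 4 libraries, and miR-237-5p, miR-48-5p and miR-240-3p all pass the same 1.5-fold criterion. The 4 miRNAs passed that criterion by their choice, so their likeness to each other is partly set by the choice.

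miR-63-3p was set beside its relatives. miR-64-5p, miR-65-5p, miR-66-5p and miR-229-5p, all encoded in a cluster on chromosome III, summed to 30901 and 35376 RPM in the ALG-1 libraries, against 93965 and 28961 RPM in the ALG-2 libraries. The sum was high in ALG-2 library A alone. miR-63-3p was a minor part of this group, at 3.80% and 4.13% of the group sum in the ALG-1 libraries, against 0.324% and 1.996% in the ALG-2 libraries. The choice of miR-63-3p bears on this share, so no difference between the co-IPs is read from it, and the ALG-2 libraries differed strongly from each other.

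The relatives were taken from known families and not by their values, although earlier results of these data were known. They were tested with limma in a fit over all 66 miRNAs (Benjamini-Hochberg adjustment). miR-66-5p had 6136 and 4595 RPM in the ALG-1 libraries, against 10363 and 10961 RPM in the ALG-2 libraries. It was lower in both ALG-1 libraries and passed the 1.5-fold criterion toward ALG-2, as did 11 of 66 miRNAs (16.7%). Its log2 ratio was -1.01 (95% interval -2.18 to 0.17), which did not pass limma (adjusted p = 0.282).

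miR-64-5p had 10383 and 11680 RPM in the ALG-1 libraries, against 37029 and 7978 RPM in the ALG-2 libraries. The ALG-1 values lay between those of the ALG-2 libraries, and the same held for miR-65-5p and miR-229-5p. The log2 ratios were -0.64 (95% interval -2.55 to 1.26) for miR-64-5p, -0.40 (-2.34 to 1.54) for miR-65-5p and -0.38 (-2.34 to 1.58) for miR-229-5p, with limma adjusted p-values of 0.677, 0.815 and 0.815. Without ALG-2 library A these log2 ratios changed sign, to 0.46, 0.72 and 0.69. A difference between miR-63-3p and its relatives was not tested, since miR-63-3p was chosen on the same contrast. In the whole fit 1 of 66 miRNAs (1.52%) passed an adjusted p of 0.05, namely miR-37-3p, which was lower with ALG-1 (log2 ratio -3.38, limma adjusted p = 0.0264) and did not pass when paired by column order (adjusted p = 0.0683).

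**Figure D4:**
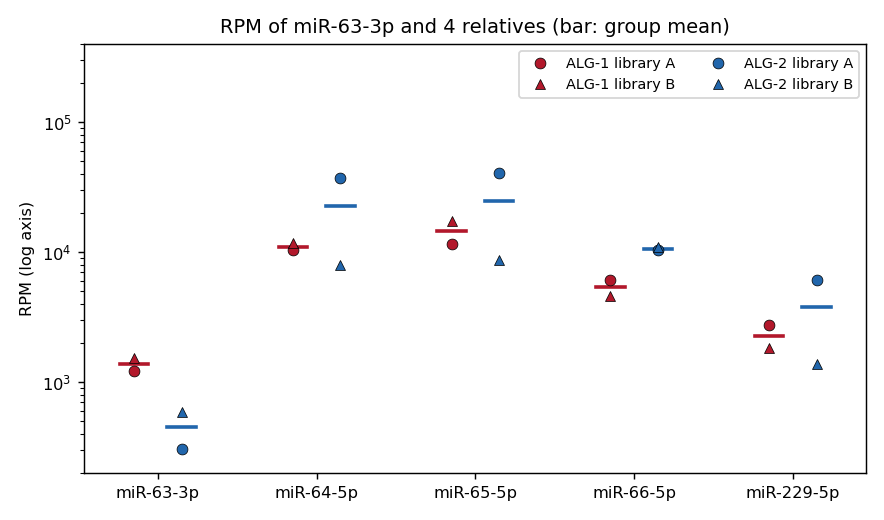
RPM (log axis) of miR-63-3p and the 4 relatives in ALG-1 libraries A and B (red) and ALG-2 libraries A and B (blue), with bars at group means (n = 2 libraries). miR-63-3p is higher in both ALG-1 libraries and miR-66-5p in both ALG-2 libraries, whereas the groups overlap for miR-64-5p, miR-65-5p and miR-229-5p, each highest in ALG-2 library A.

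Because miR-60-3p is an intestinal miRNA and miR-57-5p a posterior one, other miRNAs with known main sites were set beside them. The intestinal list held miR-60-3p, miR-240-3p and miR-786-5p, the last of which was not analysed here. miR-240-3p, encoded with mir-786, whose activity in posterior intestinal cells is needed for a regular defecation rhythm, had 852 and 794 RPM in the ALG-1 libraries, against 218 and 459 RPM in the ALG-2 libraries. Its groups did not overlap, but its log2 ratio of 1.38 did not pass limma (95% interval -0.15 to 2.90, adjusted p = 0.253). miR-786-3p, from the arm of the mir-786 hairpin opposite to miR-786-5p, was added after the table was seen. It had 419 and 426 RPM in the ALG-1 libraries, against 528 and 135 RPM in the ALG-2 libraries. The ALG-2 values lay on either side, and the groups overlapped. An excess with ALG-1 was therefore not seen for all of these intestinal miRNAs.

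For other tissues, miR-228-5p, expressed in glia, had 30666 and 30470 RPM in the ALG-1 libraries, against 36705 and 28090 RPM in the ALG-2 libraries, and the groups overlapped. The 4 let-7 family miRNAs, which act in the seam cells and hypodermis, summed to 38852 and 39720 RPM with ALG-1, against 22008 and 18873 RPM with ALG-2, and 2 of the 4 passed the 1.5-fold criterion, against 13.6% of all miRNAs. By limma 0 of the 4 passed, with adjusted p-values of 0.302 (let-7-5p), 0.188 (miR-48-5p), 0.877 (miR-84-5p) and 0.315 (miR-241-5p). The miRNAs that mark muscle (miR-1-3p) and neurons (miR-124-3p) were not analysed here. Of the 8 miR-35 family miRNAs of oocytes and early embryos, 6 were listed. These 6 summed to 48392 and 41867 RPM in the ALG-1 libraries, against 264772 and 140862 RPM in the ALG-2 libraries. Reads of the miR-35 family thus move with the groups in the direction opposite to the 4 miRNAs, and they form part of the read total behind every RPM value.

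The ratios were therefore recomputed without the miR-35 family, with the remaining miRNAs rescaled to a common total. The log2 ratios were then 1.22 for miR-57-5p, 1.84 for miR-60-3p, 1.42 for miR-63-3p and 1.83 for miR-248, and the smallest of the 4 ratios of each was 2.12, 2.65, 1.87 and 3.34. Without miR-82-3p, the most abundant miRNA, the log2 ratios were instead larger, at 1.74, 2.36, 1.93 and 2.34 in the same order. All 4 miRNAs stayed above 1.5 in all 4 ratios under these rescalings. They also did so under median-of-ratios and TMM (trimmed mean of M values) scaling. Both set the libraries to a common level from the bulk of the miRNAs. The lowest single ratio of the 4 miRNAs under any of these settings was 1.76 (miR-63-3p, TMM). Over all miRNAs kept, 7 passed toward ALG-1 without the miR-35 family and 10 without miR-82-3p. Under median-of-ratios and under TMM scaling 8 passed, against 9 as deposited. The 4 miRNAs were chosen on this criterion, so their staying above it is partly set by the choice. Nothing particular to them is read from it. Leaving out a library mattered most for miR-63-3p, whose log2 ratio was 1.21 without ALG-2 library A and 2.16 without ALG-2 library B.

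**Figure D5:**
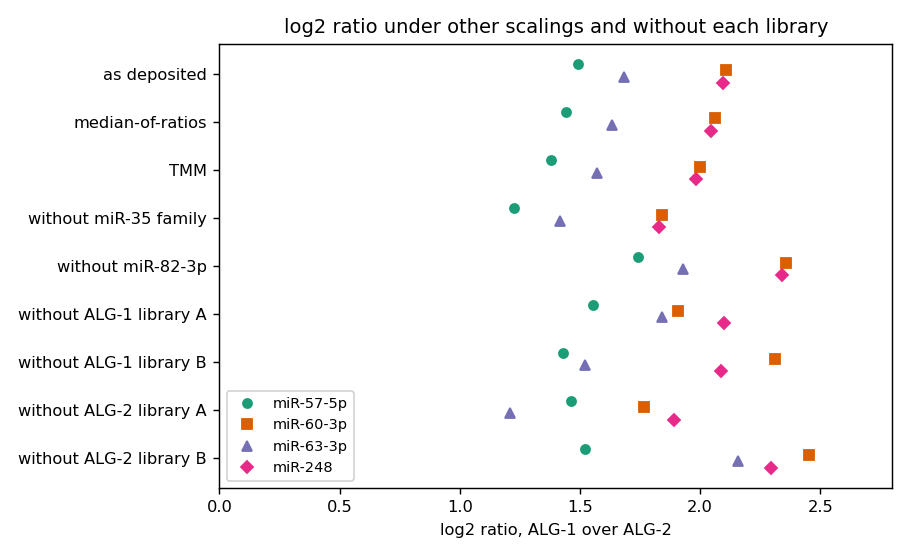
log2 ratio of ALG-1 over ALG-2 for the 4 miRNAs as deposited, under other scalings, without the miR-35 family or miR-82-3p, and without each library in turn. miR-57-5p lies between 1.22 and 1.74, miR-248 between 1.83 and 2.34, and miR-63-3p spans 1.21 to 2.16 with the ALG-2 library left out.

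The genes lie apart from each other (coordinates from RefSeq, WBcel235). *mir-57* is on chromosome II at 7850499-7850597, 702 bp from *acr-7*, a protein-coding gene, and partly overlaps the non-coding RNA gene *T09A5.19*. *mir-60* is also on chromosome II, at 6328702-6328799, between *sma-6*, which encodes a TGF-beta receptor, and *set-4*, and a short non-coding RNA gene, *C32D5.15*, is annotated within it. *mir-63* is on chromosome X at 17598765-17598868, 1619 bp from the galectin gene *lec-9*. *mir-248* is on chromosome X at 2262373-2262470, between *AH9.3* and *AH9.6*, with 696 bp to the nearer *AH9.6*. None of the 4 genes overlaps an annotated protein-coding gene.

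Of the 66 listed miRNAs, 63 were matched to a gene, and miR-58a-3p, miR-239a-5p and miR-239b-5p were not. Among the matched miRNAs, no other was encoded within 10 kb of any of the 4 genes. The nearest was that of miR-73-3p, 106.3 kb from *mir-248*, and the farthest nearest neighbour was that of miR-84-5p, 1576 kb from *mir-63*. The 4 miRNAs hence come from separate loci, in contrast to the miR-64, miR-65, miR-66 and miR-229 genes. They also do not share a hairpin arm: miR-57-5p is from the 5′ arm, miR-60-3p and miR-63-3p are from the 3′ arm, and miR-248 is the only one of the 66 names that gives no arm. No opposite arm of the 4 hairpins was listed, whereas both arms were listed for 2 other loci.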

How the data were processed

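Per the methods of the study, the authors trimmed adapters (cutadapt, per the labels), mapped reads to the WS261 genome with miRDeep2 and quantified them on miRBase annotation. The deposited values are RPM, which the authors computed per 1000000 reads of each library. miRNAs under 1000 reads were left out of their enrichment analysis. The smallest RPM sum of a listed miRNA over the libraries was 1003, so rarer miRNAs may be missing from the list. The 66 miRNAs hold 99.3% to 99.5% of each total, so an abundant miRNA lowers the others. The total thus holds few reads other than those of these miRNAs, and all shares are shares of this total. miR-44-3p and miR-45-3p have the same RPM in every library, so the 66 may not be 66 separate measurements. Depth was estimated from the step of which all values of a column are multiples, taken as 1 read. Columns name the Argonaute but not the replicate, so libraries are called A and B in column order.

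Ratios were taken between every ALG-1 and ALG-2 library. limma 3.58.1 (R 4.3.3) was fitted to log2(RPM + 1) with trended variances, without a block, over all 66 miRNAs. It was also run on simulated data with less spread than these libraries and large planted changes. That run checks the code only and does not show how well differences would be found at the observed spread. The limma values for the 4 chosen miRNAs are not used. An exact test of 2 libraries against 2 cannot go below p = 0.333. The study calls its replicates independent but does not describe separate cultures. The 4 miRNAs and all lists were chosen with earlier results of these data known. Named miRNAs are the 4, the relatives of miR-63-3p, the nearest patterns (2 each), the neighbours of the threshold, the tissue lists, and miRNAs past limma if 5 or fewer. Relatives were taken from known families, since mature sequences were not used here.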

Additional observations from a re-analysis of the deposited data

How the results depend on the processing

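Across 11 alternatives the log2 ratio of each of the 4 miRNAs stayed positive, from 1.22 to 1.74 for miR-57-5p, 1.77 to 2.45 for miR-60-3p, 1.21 to 2.16 for miR-63-3p and 1.83 to 2.34 for miR-248. This sign is largely set by the choice: other pseudocounts, the ratio of group means and leaving out a library cannot turn a miRNA whose 4 ratios agree. Leaving out a library gave 1.43 to 1.55, 1.77 to 2.45, 1.21 to 2.16 and 1.89 to 2.29 in the same order. The spread of miR-57-5p was small, at 0.097 (square root of the summed log2 variances between the libraries of each Argonaute). TMM scaling (1.38), leaving out the miR-35 family (1.22) and leaving out miR-82-3p (1.74) moved its value from 1.49 by more than this spread. The share of the 4 miRNAs became 7.75% with ALG-1 and 3.25% with ALG-2 without the miR-35 family, and 10.5% and 3.11% without miR-82-3p. The number of miRNAs past 1.5-fold toward ALG-1 was 9, and 5 with a minimum of 4000 summed RPM, where miR-63-3p and miR-248 are too rare. It was 12 to 18 with a library left out, when fewer ratios must pass.

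By limma, 0 miRNAs were called toward ALG-1, against 1 toward ALG-2 (3 and 10 of the 62 miRNAs outside the set at an unadjusted p below 0.05). Without miR-82-3p, 4 passed toward ALG-2 and 3 toward ALG-1. These 3 all belong to the chosen set, so nothing is read from them. Under TMM 4 passed toward ALG-2 and 0 toward ALG-1, and the same counts held under median-of-ratios scaling. A replicate block gave 0 and 1 when libraries were paired by column order, with miR-250-3p in place of miR-37-3p. It gave 2 and 5 when the pairing was crossed, and the 2 toward ALG-1 belong to the chosen set, so nothing is read from them. The columns carry no replicate number, and deviations of paired libraries correlated at -0.21 in column order and 0.21 when crossed. miR-37-3p kept its direction, with adjusted p from 0.0672 to 0.736 in the fits in which it did not pass. Of 14 named miRNAs outside the set, which include only miR-37-3p of the miR-35 family, 8 kept their direction in every fit. The others turned without a library, for miR-64-5p (-1.75 to 0.46), miR-65-5p (-1.51 to 0.72), miR-229-5p (-1.45 to 0.69), miR-786-3p (-0.32 to 1.64) and miR-228-5p (-0.26 to 0.12, and 0.18 without miR-82-3p), or, for miR-84-5p, without the miR-35 family (-0.10). The cause was not tested. A count test was not run, since the table is too short for reads to be accepted as recovered, and the depths given are estimates for the same reason.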
